A study of Mus musculus with 26 samples.

Results

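The 8 genes described here were Hmgcs1 (ENSMUSG00000093930), Idi1 (ENSMUSG00000058258), Fdft1 (ENSMUSG00000021273), Sqle (ENSMUSG00000022351), Lss (ENSMUSG00000033105), Dhcr7 (ENSMUSG00000058454), Srebf2 (ENSMUSG00000022463) and Insig1 (ENSMUSG00000045294). They were chosen by symbol as genes of cholesterol synthesis and its control, and each matched 1 of the 56941 genes in the deposited tables. All 8 passed the filter on low counts in every fit.

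Cells build cholesterol from acetyl-CoA through mevalonate and the isoprenoid squalene, which is then closed into a ring and trimmed to cholesterol. The transcription factor SREBP2, the product of Srebf2, is held in the endoplasmic reticulum by INSIG proteins while sterol is abundant, and is cleaved and sent to the nucleus when sterol is scarce, where it switches on most enzymes of the path. In the nervous system cholesterol is made locally, because plasma lipoproteins do not cross the blood-brain barrier, and glia make much of it for neurons and for myelin.

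RNA was sequenced from 26 cultures of motor neuron spheroids differentiated from the mouse embryonic stem line HBG3, in which GFP is driven by the HB9 (Mnx1) promoter and whose genotype label reads heterozygous blastocysts. All 5 groups shared this 1 line and the same differentiation with retinoic acid and puromorphamine (the labels' spelling), with ciliary and glial derived neurotrophic factors from day 5, and all were placed on fibrin around day 8. The actuated array group (n = 4) sat on a magnetic silicone array driven at 4 Hz for 30 min each day, and the static array group (n = 4) on such an array that was never moved. The biochemical arm held groups labelled high intensity (n = 6), low intensity (n = 6) and biochemical control (n = 6). The design text describes medium from muscle cells that were or were not stimulated with light, under sample names that the labels do not tie to high or low intensity, so these groups are named by intensity only. The labels do not say whether replicates came from separate differentiations, so p-values measure only the spread between these samples.

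Depth separated the libraries. In 21 of them, called the deeper libraries, protein-coding genes had over 1000000 counts, and totals ran from 1551334 to 13162635. The other 5 held 1536 to 1457250 counts: static replicate 3, high-intensity replicates 4 and 5, low-intensity replicate 6 and control replicate 4. The last had 80.2% of its counts on a set of genes called the rRNA set here. That set took rRNA biotypes, mitochondrial ones included, and symbols such as Rn7s1 and Rn7s2, which are RNA of the signal recognition particle. Mitochondrial rRNA is thus counted in this set and among the mitochondrial genes. Because depth differed, results are given for all 26 libraries (14907 genes tested, common dispersion 0.251) and beside them for the 21 deeper ones (14730 genes tested, common dispersion 0.0923). Levels are TMM-scaled counts per 1000000 (CPM) in the deeper libraries unless another scale is named. The general neuronal gene Tubb3 averaged 478 to 680 CPM over the 5 groups. The motor neuron markers Mnx1 and Chat averaged 5.88 to 9.40 CPM and 6.09 to 11.3 CPM. Gfap, a marker of astrocytes, averaged 1516 to 2410 CPM. Markers of neurons and of glia were thus both present, and in such bulk samples a change in the number of cells of a type and a change in RNA per cell cannot be told apart.

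The promoters of the genes were read for the motifs that SREBP2 and its partners are known to bind. Entries for 6 of the genes were found in RefSeq's promoter table (GRCm38.p6, 250 bases before to 50 after the start site): Hmgcs1, Idi1, Lss, Dhcr7, Srebf2 and Insig1, with 8 promoters in all. The motifs were searched on both strands and spelled TCACNCCAC (a sterol regulatory element), CCAAT (the NF-Y box), GGGCGG (the Sp1 box) and CACGTG (an E-box). TCACNCCAC was found in Hmgcs1, 137 bases upstream of its start site, and in 1.24% of 32851 promoters of the same length. The 250 bases upstream of Hmgcs1 (chr13:119690101-119690350, plus strand) are shown because they hold this element, in capitals, with inverted CCAAT boxes (attgg) on either side of it.
Hmgcs1: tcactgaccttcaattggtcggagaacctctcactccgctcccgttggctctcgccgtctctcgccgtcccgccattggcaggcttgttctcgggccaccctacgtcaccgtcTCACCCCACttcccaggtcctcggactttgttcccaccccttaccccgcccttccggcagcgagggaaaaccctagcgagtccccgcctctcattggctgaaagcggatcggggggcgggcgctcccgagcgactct

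CCAAT was present in 6 of the 8 promoters and in at least 1 promoter of each of the 6 genes, against 37.4% of all promoters. GGGCGG was present in 7 of the 8 promoters, against 35.7%, and CACGTG in 1 promoter each of Insig1 and Dhcr7, against 7.15%. No match overlapped a match of another motif in these promoters. The nearest CCAAT box upstream of the start site lay on the minus strand in all 6 genes, so the plus strand reads ATTGG. These windows are shown in lower case with that box in capitals, and were chosen after the matches were seen. They lie at chr5:28071181-28071215 for Insig1, chr7:143830150-143830184 for Dhcr7, chr10:76531528-76531562 for Lss, chr13:8885577-8885605 for Idi1, chr13:119690291-119690325 for Hmgcs1 and chr15:82147119-82147153 for Srebf2. A match describes letters in a window and does not show that a factor is bound there.
Hmgcs1: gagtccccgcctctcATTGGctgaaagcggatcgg
Idi1: atggtccaaggtgccATTGGctggcgacc
Lss: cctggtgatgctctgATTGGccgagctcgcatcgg
Dhcr7: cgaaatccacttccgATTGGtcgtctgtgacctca
Srebf2: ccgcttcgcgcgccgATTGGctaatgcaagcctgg
Insig1: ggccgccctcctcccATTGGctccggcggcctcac

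Per unit of transcript length, Hmgcs1 was the most abundant of the 8 genes. On the deposited TPM scale its level averaged 184 ± 63.5 TPM (SD, n = 21 deeper libraries). Srebf2 averaged 53.1 ± 16.0 TPM, Fdft1 52.9 ± 18.5, Idi1 40.9 ± 17.3 and Sqle 38.2 ± 11.9. Dhcr7 averaged 17.2 ± 6.97 TPM, Insig1 17.1 ± 5.73 and Lss 15.0 ± 8.29. Hmgcs1 thus stood apart from the others, while among the others neighbours in this order differed by less than their SD, except for the step from Sqle to Dhcr7.

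The biochemical controls had the lowest mean CPM of the 5 groups for 6 of the 8 genes, all but Idi1 and Fdft1. When the 5 groups were ranked by mean CPM for each gene, 32 pairs of neighbouring groups arose, and the gap exceeded the larger SD of the pair in 4 of them. These were static array over low intensity for Hmgcs1 and Srebf2, static array over high intensity for Sqle, and low intensity over control for Insig1. The mean log2 CPM of the 8 genes ran from 6.48 to 6.90 over the 7 array libraries and from 6.04 to 6.43 over the 14 libraries of the biochemical arm. Every deeper array library also had a higher total count than every deeper library of the biochemical arm. How often other genes separate the arms in this way was not counted, and the part of depth was not tested.

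**Figure D1:**
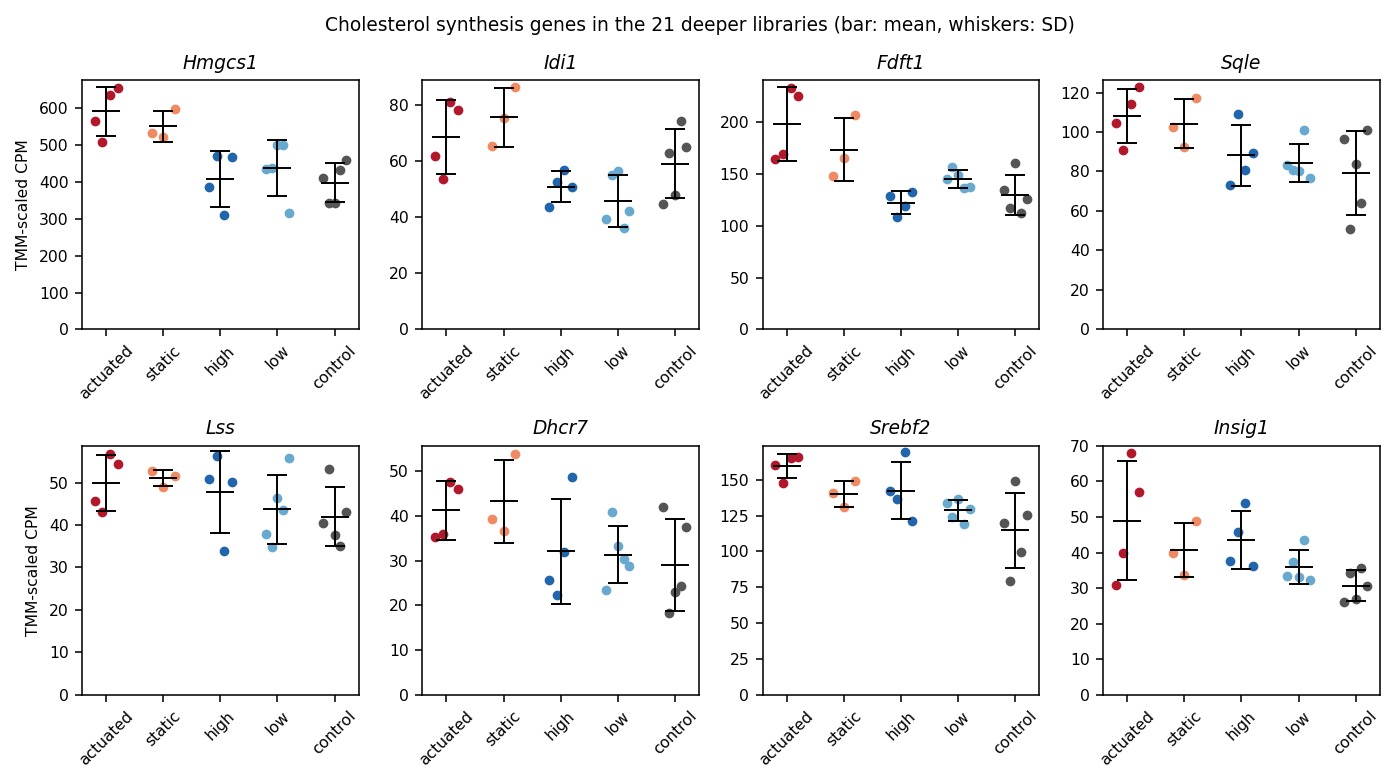
TMM-scaled CPM (vertical axis, from 0) of each gene in the 21 deeper libraries by group, with every library as a point, the group mean as a bar and the SD as whiskers. The 7 array libraries of Hmgcs1 sit at 509 to 655 CPM and the 14 others at 310 to 501 CPM. The share of all genes that separate in this way was not counted.

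Hmgcs1 encodes the cytosolic HMG-CoA synthase, an early enzyme of the mevalonate path. Its level in the actuated libraries was 567, 509, 637 and 655 CPM, and in the static libraries 532, 523 and 598 CPM. High-intensity libraries had 387, 471, 310 and 468 CPM, low-intensity libraries 436, 439, 499, 501 and 317 CPM, and controls 411, 343, 343, 432 and 460 CPM. All 7 array libraries thus lay above all 14 others among the deeper libraries. The share of all genes that separate in this way was not counted. The array libraries also had higher totals, 7269276 to 13162635 counts against 1551334 to 3971348. The part of depth in this separation was not tested. On an unscaled CPM of protein-coding counts alone, which also covers the shallow libraries, the separation of array from biochemical libraries was not complete. There the actuated libraries started at 614, low-intensity replicate 4 reached 617, static replicate 3 had 472, control replicate 4 had 680 and high-intensity replicate 4 had 732.

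Idi1 encodes an isopentenyl diphosphate isomerase, which balances the isoprenoid building blocks. It stood at 62.0, 53.6, 81.3 and 78.3 CPM in the actuated libraries and at 65.4, 75.3 and 86.4 CPM in the static ones. High-intensity libraries had 43.6, 52.7, 56.8 and 50.7 CPM, low-intensity libraries 39.6, 55.1, 56.5, 36.0 and 42.2 CPM, and controls 44.9, 63.1, 48.1, 74.4 and 65.2 CPM. The low-intensity group had the lowest mean and the controls overlapped every other group.

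Fdft1 encodes squalene synthase, which commits isoprenoids to sterols. The actuated libraries had 165, 169, 232 and 225 CPM and the static libraries 148, 165 and 207 CPM. High-intensity libraries had 129, 108, 119 and 133 CPM, low-intensity libraries 145, 156, 149, 136 and 137 CPM, and controls 135, 117, 161, 112 and 125 CPM. All 4 actuated libraries and 2 of the 3 static ones lay above the highest control, and how many other genes do so was not counted.

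Sqle encodes squalene epoxidase, the oxygen-dependent step before ring closure. It ranged from 91.0 to 123 CPM on the 2 kinds of array, and from 50.8 to 109 CPM in the biochemical arm. Lss encodes lanosterol synthase, which closes the ring, and was the steadiest of the 8 genes, with a 1.67-fold range over the deeper libraries (33.9 to 56.6 CPM). Dhcr7 encodes the reductase of the last step to cholesterol, and ranged from 35.4 to 54.0 CPM on the arrays and from 18.2 to 48.8 CPM in the biochemical arm. The array and biochemical ranges overlapped for all of these enzymes.

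Srebf2 encodes the sterol-sensing transcription factor itself. Its level was 160, 148, 165 and 166 CPM in the actuated libraries and 141, 131 and 149 CPM in the static ones. High-intensity libraries had 142, 137, 169 and 121 CPM, low-intensity libraries 134, 124, 137, 119 and 130 CPM, and controls 120, 79.6, 149, 99.7 and 125 CPM. The widest spread was among the controls, whose SD of 26.4 CPM compared with 7.18 CPM at low intensity.

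Insig1 encodes an anchor that retains the SREBP complex and is itself a target of SREBP. The actuated libraries had 30.8, 40.0, 68.0 and 57.2 CPM and the static libraries 39.8, 33.8 and 48.8 CPM. High-intensity libraries had 37.6, 45.8, 54.0 and 36.4 CPM, low-intensity libraries 33.5, 37.5, 33.0, 43.6 and 32.3 CPM, and controls 26.2, 34.3, 26.9, 35.6 and 30.7 CPM. The controls were the lowest group and all 4 high-intensity libraries exceeded them, as they did for 2.07% of all genes.

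The shallow libraries had few counts of these genes. Low-intensity replicate 6 had 0 counts of all 8, where a count of 0 allows up to 1953 CPM (3 counts, counting error only). High-intensity replicate 4 had 135 counts of Hmgcs1, 59 of Fdft1 and 1 of Srebf2, but 0 of the other 5 genes, which allows each up to 12.3 CPM. That library held counts on 4142 genes, against 16753 or more in the deeper high- and low-intensity libraries.

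The 2 arms of the study were linked by comparing the static array with the biochemical control, neither of which was actuated or labelled with an intensity. None of the 8 genes passed an adjusted p of 0.05 in this comparison (edgeR quasi-likelihood test), with all 26 libraries (where 0.0134% of all genes were called) or with the deeper ones (0.713%). In the deeper libraries all 8 log2 fold changes were above 0, as were 49.7% of all genes, and they lay between 0.28 and 0.56, with a median of 0.40 against a median of -0.003 over all genes. With all 26 libraries all 8 were again above 0, as were 59.5% of all genes, with a median of 0.37 against 0.09. The arms differ in more than the array, and arm and library quality cannot be told apart here.

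Among the single genes in the deeper libraries, Hmgcs1 differed by 0.47 on the log2 scale (SE 0.15) at an edgeR adjusted p of 0.145, from 551 ± 41.0 CPM (SD, n = 3) against 398 ± 52.9 CPM (SD, n = 5). Its ranges in the 2 groups did not overlap, which held in the same direction for 4.52% of all genes. Fdft1 had 0.41 (SE 0.14), with an edgeR adjusted p of 0.179. Dhcr7 had the highest value, 0.56, with the widest error (SE 0.26) and an edgeR adjusted p of 0.354. The log2 fold changes of the others were 0.39 for Sqle, 0.36 for Idi1, 0.41 for Insig1, 0.29 for Srebf2 and 0.28 for Lss. At an unadjusted p under 0.05, edgeR passed Hmgcs1, Fdft1, Sqle and Dhcr7 in the deeper libraries, against 12.6% of all genes (6.1% in the higher direction), and 0 of the 8 genes with all 26 libraries, against 5.27%. DESeq2 and limma voom called 0 of the 8 in either set of libraries.

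Other properties moved with this comparison in the deeper libraries. Mitochondrial genes took 7.30 to 8.04% of counts in static libraries and 11.7 to 17.5% in controls. The rRNA set, which overlaps with them, took 9.43 to 11.9% and 17.6 to 22.4%. Totals were 7724923 to 13162635 counts against 2273487 to 3771637. The 7 astrocyte and radial glia markers summed to 3584 to 4331 CPM in static libraries and 2350 to 3189 CPM in controls. Of these 6 of 7 were above 0 (median log2 fold change 0.43) and 0 of 7 were called. The oligodendrocyte lineage markers summed to 246 to 541 CPM against 91.7 to 193 CPM. Mog had 0 counts in every deeper control, where 3 counts make 0.795 to 1.32 CPM, and in every deeper high-intensity library. All 6 tested markers of this lineage were above 0 (median log2 fold change 1.48) and 0 of 6 were called. The listed motor neuron markers, which include the general neuronal gene Tubb3, summed to 2013 to 3024 CPM against 1993 to 2813 CPM. Of 8 tested, 6 were below 0 (median log2 fold change -0.21) and 1 was called. This was the choline transporter gene Slc5a7, which fell by 1.88 on the log2 scale (edgeR adjusted p = 0.00392). The 4 markers of dividing cells summed to 266 to 408 CPM against 164 to 227 CPM, with 4 of 4 above 0 (median log2 fold change 0.91) and 0 of 4 called. The fibroblast and mesenchyme markers summed to 154 to 770 CPM against 348 to 895 CPM, with 6 of 7 below 0 (median log2 fold change -0.59) and 0 of 7 called. At an unadjusted edgeR p under 0.05 there were 4 of 7 astrocyte and radial glia markers and 4 of 6 oligodendrocyte lineage markers. The same held for 3 of 8 motor neuron, 2 of 4 dividing-cell and 1 of 7 fibroblast and mesenchyme markers, against 12.6% of all genes. The part of these properties in the values of the cholesterol genes was not tested.

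Actuation of the array was compared within the mechanical arm. No member was called at an adjusted p of 0.05 by edgeR, as for 0% of all genes with either set of libraries, and at an unadjusted p under 0.05 the 8 genes also gave 0, against 3.86% of all genes with 26 libraries and 0.38% with the deeper ones. DESeq2 and limma voom called 0 of the 8. Log2 fold changes in the deeper libraries ran from -0.14 for Idi1 to 0.27 for Insig1, with 5 above 0 (49.8% of all genes) and a median of 0.08. For Hmgcs1 the 95% interval of the log2 difference was -0.22 to 0.42 and for Insig1 -0.19 to 0.72. Actuated replicates 3 and 4 had more Fdft1, Hmgcs1 and Insig1 than any deeper static library, and actuated replicates 1 and 2 had less of each than the highest static one. The share of all genes with this pattern was not counted.

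High intensity against control likewise called 0 of the 8 genes at an adjusted p of 0.05 by edgeR, where 0.0402% of all genes were called with 26 libraries and 0.462% with the deeper ones. Insig1 had the largest value in the deeper libraries, 43.4 ± 8.18 CPM (SD, n = 4) against 30.7 ± 4.24 CPM (SD, n = 5), or 0.50 on the log2 scale (SE 0.20), with an edgeR adjusted p of 0.225. Its ranges did not overlap, which 2.07% of all genes did in this direction. Control replicate 4, which is shallow, had 84.5 CPM of Insig1 on the scale of protein-coding counts, more than the 67.6 of the highest high-intensity library, and with all 26 libraries the log2 fold change of Insig1 was 0.11. Srebf2 had 0.31 (SE 0.13), with an edgeR adjusted p of 0.253, and 0.14 with all 26 libraries. In limma on TMM-scaled TPM of the deeper libraries Srebf2 had 0.04 and Insig1 0.50, against a median of 0.06 over all genes. These 2 genes passed an unadjusted p of 0.05 in the deeper libraries, against 15.9% of all genes, and 0 of the 8 did with all 26, against 7.04%. The fibroblast and mesenchyme markers summed to 902 to 2390 CPM at high intensity and 348 to 895 CPM in controls (0 of 7 called, 4 of 7 at an unadjusted edgeR p under 0.05). All 4 dividing-cell markers had log2 fold changes above 0 in the deeper libraries, from 1.14 to 1.93, and edgeR called 2 of the 4. Mitochondrial genes took 8.54 to 14.6% of counts at high intensity against 11.7 to 17.5% in controls, and the rRNA set 10.6 to 19.6% against 17.6 to 22.4%. Their part in the values of Insig1 and Srebf2 was not tested.

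Low intensity against control called 0 of the 8 genes by edgeR, where 0.0268% of all genes were called with 26 libraries and 0.597% with the deeper ones. Idi1 was the 1 gene of the 8 with an unadjusted p under 0.05 in the deeper libraries, against 15.2% of all genes, and with all 26 libraries none was, against 5.23%. The difference was -0.36 on the log2 scale (SE 0.17) at an edgeR adjusted p of 0.304, from 45.9 ± 9.33 CPM (SD, n = 5) against 59.1 ± 12.4 CPM (SD, n = 5), and the ranges overlapped. The other 7 genes had log2 fold changes above 0 in the deeper libraries (49.1% of all genes), between 0.06 for Lss and 0.22 for Insig1. With all 26 libraries 4 of the 8 were above 0 and 4 below, with a median of -0.02 against -0.05 over all genes. In limma on TMM-scaled TPM of the deeper libraries Lss had -0.63, while 6 of the 8 lay above the median of all genes (0.03). At low intensity the rRNA set took 10.2 to 15.0% of counts against 17.6 to 22.4% in controls, and mitochondrial genes 9.09 to 13.2% against 11.7 to 17.5%. The dividing-cell markers summed to 190 to 560 CPM against 164 to 227 CPM (1 of 4 called, 4 of 4 at an unadjusted edgeR p under 0.05). The fibroblast and mesenchyme markers summed to 234 to 2567 CPM against 348 to 895 CPM (0 of 7 called, 1 of 7 at an unadjusted edgeR p under 0.05). Their part in the values of the 8 genes was not tested.

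High against low intensity called 0 of the 8 genes by edgeR, as for 0% of all genes in both sets of libraries. At an unadjusted p under 0.05 the 8 genes gave 0 as well, against 2.91% of all genes with 26 libraries and 7.68% with the deeper ones. Fdft1 was closest, at -0.24 on the log2 scale (SE 0.13) with an edgeR adjusted p of 0.687, and its high-intensity libraries all lay below its lowest low-intensity library (1.35% of all genes did so). The 95% interval of the log2 difference of Hmgcs1 was -0.38 to 0.19. DESeq2 and limma voom called 0 of the 8 in each comparison with the control and between the intensities.

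**Figure D2:**
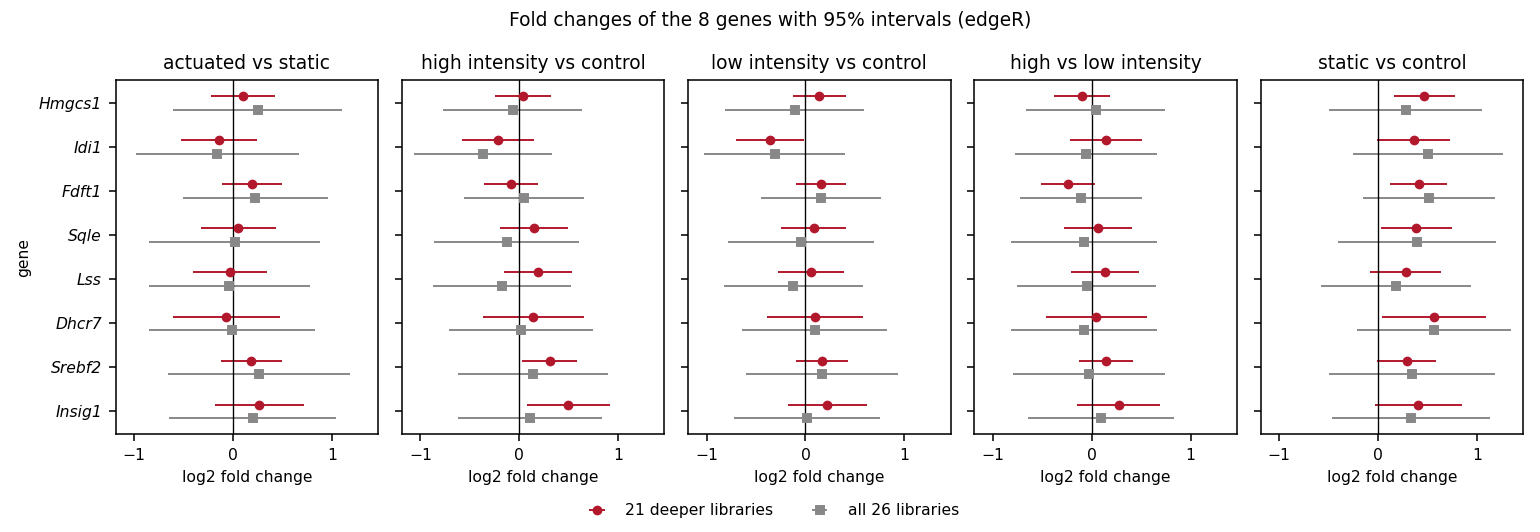
Log2 fold change (horizontal axis) with its 95% interval for each gene (vertical axis) in the 5 comparisons, for the 21 deeper libraries (red circles) and all 26 (grey squares). In static array against control all 8 points lie above 0 with either set of libraries, between 0.28 and 0.56 in the deeper ones, and the intervals with all 26 include 0.

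The comparisons with the control share its libraries, so their values stand side by side here and are not independent. Sqle had log2 fold changes of 0.39, 0.15 and 0.08 in static array, high intensity and low intensity against control in the deeper libraries. Dhcr7 had 0.56, 0.14 and 0.10, and Fdft1 had 0.41, -0.09 and 0.16. For Insig1 the values were 0.41, 0.50 and 0.22, and for Srebf2 0.29, 0.31 and 0.17.

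The other 15 enzymes of the sterol path had the same sign in static array against control. All 15 had log2 fold changes above 0 in the deeper libraries, as had 49.7% of all genes, with a median of 0.31 (median of all genes -0.003), and 1 was called, against 0.713% of all genes. This was Fdps, the farnesyl diphosphate synthase that feeds squalene synthase, which rose from 74.7 ± 11.6 CPM (SD, n = 5) to 133 ± 6.93 CPM (SD, n = 3), or 0.84 on the log2 scale (SE 0.14) at an edgeR adjusted p of 0.00392. Its static libraries had 126 to 140 CPM and its controls 55.8 to 85.5 CPM, without overlap. With all 26 libraries the value was 0.88 and the edgeR adjusted p 0.896. At an unadjusted p under 0.05 there were 5 of the 15 (Fdps, Msmo1, Pmvk, Cyp51 and Ebp), against 12.6% of all genes, and 1 of the 15 with all 26 libraries, against 5.27%.

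**Figure D3:**
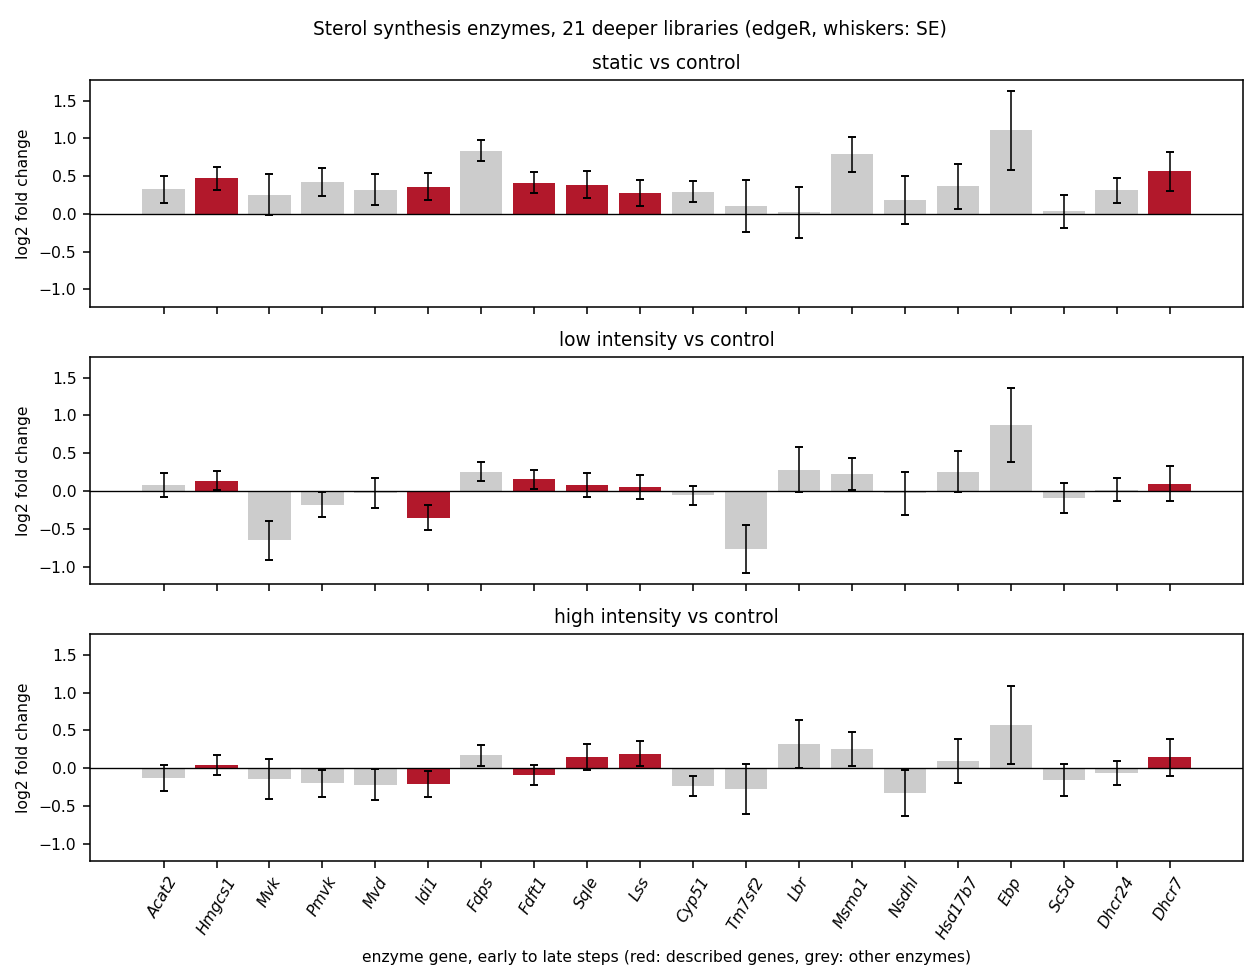
Log2 fold change (vertical axis, bars from 0, whiskers SE) of the 6 described enzymes (red) and 14 of the 15 other enzymes (grey) in rough order of the path, for 3 comparisons with the control in the 21 deeper libraries. All 20 bars are above 0 in static array against control, with Fdps at 0.84, while signs are mixed at low and high intensity.

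At high and low intensity the same 15 enzymes gave medians of -0.13 and 0.02 against control in the deeper libraries. EdgeR called 0 of the 15 in either, against 0.462% and 0.597% of all genes, and 0 and 2 of them had an unadjusted p under 0.05, against 15.9% and 15.2%. In actuated against static array their median was 0.03, with 10 above 0 (49.8% of all genes). There 0 of the 15 were called (0% of all genes), and 0 had an unadjusted p under 0.05 (0.38% of all genes).

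Genes that sense, take up, export and store sterol were read beside them. Of the 8 SREBP processing genes none was called by edgeR in any comparison, where at most 0.713% of all genes were called. Srebf1, the paralogue that drives fatty acid synthesis, had the smallest p of the lists at high intensity, at 0.61 on the log2 scale (SE 0.22) with an edgeR adjusted p of 0.158 in the deeper libraries, from 21.9 ± 1.50 CPM (SD, n = 4) against 14.3 ± 2.87 CPM (SD, n = 5). Its sign turned in limma on TPM-based values, with -0.28 after TMM scaling of TPM in the deeper libraries and -0.97 on log2(TPM + 0.1) with all 26. Apoe, the lipoprotein of glia, was next in that comparison with -0.39 (SE 0.14, edgeR adjusted p = 0.165), and on log2(TPM + 1), where the median of all genes was 0.52, it had 0.18. At low intensity the smallest p belonged to Abcg4, a sterol exporter, with -0.69 (SE 0.24, edgeR adjusted p = 0.144), and Npc1, which moves cholesterol out of lysosomes, with 0.32 (SE 0.12, edgeR adjusted p = 0.192). With all 26 libraries Npc1 had -0.01 in limma on log2(TPM + 0.1).

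Between the intensities the smallest p belonged to the lipoprotein receptor gene Vldlr, at 88.6 ± 25.3 CPM (SD, n = 4) for high and 143 ± 31.2 CPM (SD, n = 5) for low intensity. Its log2 fold change was -0.68 (SE 0.17), and it missed the threshold in edgeR (adjusted p = 0.206) and passed it in DESeq2 (adjusted p = 0.0154), both in the deeper libraries. Abca1, another exporter, had -0.34 (edgeR adjusted p = 0.612). In actuated against static array the smallest p values were those of Nr1h2, an oxysterol receptor, at 0.31 and Abca1 at 0.23, both with an edgeR adjusted p of 1.

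The remaining lists had medians nearer to those of all genes. In static array against control in the deeper libraries, the 8 tested genes of uptake and transport had a median log2 fold change of 0.16, the 7 tested genes of export, storage and oxidation -0.09, the 8 genes of SREBP processing 0.06 and the 10 genes of fatty acid synthesis 0.18. None of these genes was called by edgeR there, against 0.713% of all genes, and 1, 0, 1 and 3 respectively had an unadjusted p under 0.05, against 12.6%.

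The scale on which the authors deposited the data mattered for these genes. RNA of the signal recognition particle (Rn7s1 and Rn7s2) took 27.8 to 61.0% of all TPM in the deeper controls and 11.9 to 32.7% in the other deeper libraries, and protein-coding genes took 24.1 to 44.5% against 40.1 to 66.9%. On log2(TPM + 1), limma gave a median log2 fold change over all genes of 0.52 for high intensity, 0.60 for low intensity and 0.49 for static array against control. It called 1, 5 and 1 of the 8 genes there, with 10.7%, 28.8% and 2.7% of all genes called. After TMM scaling of the TPM values it called 0 of the 8 genes in each, with 0.0704%, 0.0997% and 0.0528% of all genes called. The median of the 8 genes in static array against control was 0.99 on TPM and 0.46 after scaling, against 0.49 and 0.07 over all genes.

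**Figure D4:**
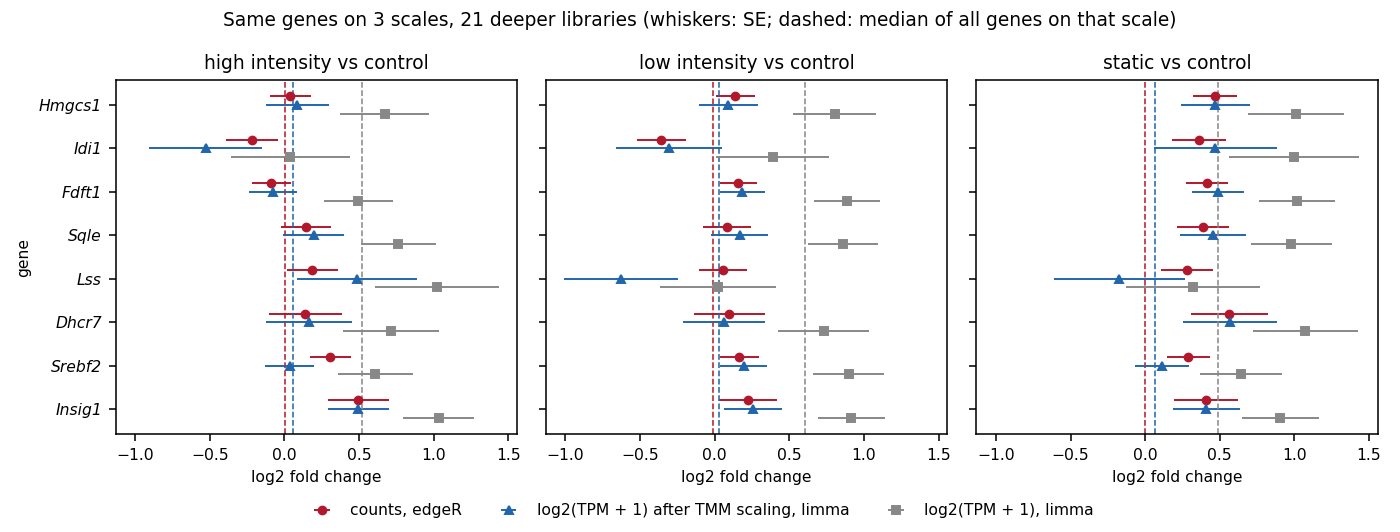
Log2 fold change against control (horizontal axis, whiskers SE) of each gene (vertical axis) in the 21 deeper libraries from counts (red circles), TMM-scaled TPM (blue triangles) and TPM (grey squares), with the median of all genes on each scale as a dashed line. Grey points and their line shift to the right together, by 0.49 to 0.60 for the line.

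All 8 genes spanned a wider range over the deeper libraries in TPM than in CPM. The ranges went from 3.54-fold in TPM against 2.15-fold in CPM for Fdft1 to 8.14-fold against 1.67-fold for Lss, with 6.58-fold against 2.96-fold for Dhcr7. In static array against control Lss changed sign, with a log2 fold change of 0.28 from counts and -0.17 from scaled TPM, which left 7 of the 8 genes above 0 on that scale.

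The 8 genes were also compared in pairs over the deeper libraries. All 28 pairs had a positive Pearson r of log2 CPM, from 0.07 for Lss and Srebf2 to 0.73 for Hmgcs1 and Sqle, with a median of 0.43 over 21 libraries that fall into 5 groups and share their depth differences. After each group's mean was taken out the median was 0.18 and 22 pairs stayed positive. Hmgcs1 and Sqle then had 0.56, and Lss and Srebf2 had -0.36. These are descriptions over libraries that differ in depth, and the share of positive r among pairs of other genes was not counted.

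Outside the lists, the genes most like the mean z-score of the 8 over the 21 deeper libraries, of 11245 ranked, were Tmem176b (r = 0.89), Fos (0.87), Nsg2 (0.85), Egr1 (0.85) and Ncan (0.85). Fos and Egr1 are immediate early genes. Fos averaged 129 CPM in actuated libraries, 75.7 in static, 21.1 at high intensity, 27.7 at low intensity and 15.6 in controls. Egr1 averaged 151, 74.5, 22.5, 15.1 and 10.4 CPM in the same order. After group means were taken out Egr1 had an r of 0.89 and Fos of 0.75. These values come from the libraries that were used to pick the genes, so they are no separate check of the likeness. Listed genes with a high r included Fdps (0.83), Fads2 (0.82), Msmo1 (0.77) and Me1 (0.76).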

How the data were processed

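Per the labels, libraries came from total RNA by a low-input kit with rRNA cleavage, without molecular identifiers being mentioned. The authors deposited estimated counts (expected counts, here rounded to whole numbers) and TPM for 56941 genes. The submitters' processing notes name STAR, Salmon, BWA 0.7.12-r1039 and bedtools 2.25.0 without roles. The sources used here do not give the strand setting or how reads were shared between near-identical genes. Members, lists, naming rule and alternatives were chosen with earlier results of these data known.

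All 26 libraries, or the 21 deeper ones, were fitted in 1 edgeR 4.0.16 model (R 4.3.3) with a coefficient per group, filterByExpr, TMM scaling and the quasi-likelihood test. P-values were adjusted by Benjamini-Hochberg over all genes tested per comparison (threshold 0.05). Alternatives used limma 3.58.1, DESeq2 1.42.0, other filters, scalings and units, a replicate block and each library left out. Named genes are the 8 members, list genes called or, failing any, the 2 of smallest p, and the 5 most alike. Over 325 pairs of libraries chi-square per degree of freedom was 4.74 to 646, so none was a duplicate. Skeletal muscle markers summed to at most 171 CPM and pluripotent markers to at most 7.57 CPM. Values of some list genes are not reported here.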

Additional observations from a re-analysis of the deposited data

Results flagged for a closer look

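Of 32 sets of deeper libraries tested (8 genes in 4 groups of 4 or 5), 1 held a library far from the rest. Sqle in low-intensity replicate 4 stood at 101 CPM while the other 4 low-intensity libraries had 76.5 to 83.3 CPM. The gap to the nearest was 0.726 of the range. Chance flags about 1 in 20 such sets, and this library was the shallowest of the deeper ones, with 1551334 counts.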

How the results depend on the processing

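None of the 8 genes was called in any comparison by edgeR under another filter, scaling, threshold or choice of groups, by DESeq2 or limma, or with any of the 26 libraries left out (0 to 0), nor with any of the 21 deeper libraries left out (0 to 0). Alternatives on the deeper libraries chosen after seeing the data gave the same, except limma on log2(TPM + 1), which called 1 gene at high intensity against control (Insig1, adjusted p = 0.0158), 5 at low intensity against control (Hmgcs1, Fdft1, Sqle, Srebf2 and Insig1) and 1 in static array against control (Fdft1, adjusted p = 0.0415). With TMM scaling of the same values none was called. The median log2 fold change of the 8 genes in static array against control ran from 0.28 to 0.47 in the deeper libraries and from 0.30 to 0.44 in all 26 when a library was left out.

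Hmgcs1 in that comparison had edgeR adjusted p-values of 0.0900 to 0.484 when a deeper library was left out. Fdps had 0.0025 to 0.0490 there, and 0.0911 in limma after TMM scaling of TPM. Deviations of same-numbered libraries correlated at -0.21 to 0.16 over 16 pairs, with 2 above 0.1. Both were in actuated against static array (0.12 for replicate 1 and 0.16 for replicate 4), where replicate 2 had -0.11. Differently numbered libraries were not compared, so these values do not settle whether replicate numbers pair the samples. A replicate block moved the genes called in the deeper libraries from 68 to 2 for high intensity, from 88 to 8 for low intensity and from 105 to 36 for static array against control, and kept the 8 genes at 0. Leaving out 1 deeper library moved these counts to 0 to 397 (highest without high-intensity replicate 6), 2 to 264 (without low-intensity replicates 1 and 3) and 18 to 141 (without static replicate 4 and control replicate 6). Counts over all genes depended on the method: without a low-count filter 1137, 220, 153, 107 and 219 genes were called in actuated against static array, high intensity, low intensity, high against low intensity and static array against control, where edgeR with the filter called 0, 6, 4, 0 and 2. DESeq2 on the deeper libraries called 5, 467, 471, 49 and 381, where edgeR called 0, 68, 88, 0 and 105.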
